A study of Mus musculus with 4 samples.

Results

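The genes described here encode the proteins of the cytosolic ribosome. They were measured in cultured mouse muscle stem cells by droplet single-cell RNA sequencing. Members were chosen by symbol, as Rpl or Rps followed by a digit, or Rplp0, Rplp1, Rplp2 or Rpsa. Pseudogenes and the Rps6k kinases were left out, and a member had to have at least 50 UMIs (unique molecular identifiers, each marking 1 captured RNA molecule) in every file. Of 32285 genes in the files, 86 matched by symbol and 83 passed the minimum. The 3 that did not pass are Rpl3l, Rpl39l and Rpl10l, with at most 6, 4 and 0 UMIs in a file. The lowest member, Rps27rt, had 1855 to 2075 UMIs per file, so no gene lay near the minimum on either side.

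A ribosome is built from a small and a large subunit, each an RNA core covered by many different proteins. Nearly all of these proteins are needed in equal numbers, so their genes are usually expressed together at high levels. Several have a paralog, a second gene for a similar protein. Rpl3l is the textbook case in muscle, where it takes the place of Rpl3 in adult striated fibres. Ribosomal protein mRNAs, and those of several translation factors, are also known for a run of pyrimidines at their start (a terminal oligopyrimidine tract), through which mTOR and Larp1 control their translation.

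All cells came from MyoD-KI mice, in which tdTomato, a red fluorescent protein, reports the muscle transcription factor MyoD. They were cultured for 5 days in serum-rich growth medium, and those with high reporter signal were sorted, so every cell here was selected on MyoD. The single group, MyoD high, has 4 replicates, with no untreated or other control group among the files used here. The labels do not say how many animals contributed, and the low-reporter population they mention was not analysed here.

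The 4 files held the same cells. Every pair shared 99.9% of the smaller file's barcodes, and the summed gene counts of each pair differed by a chi-square of 0.901 to 1.03 per degree of freedom. They were therefore counted as 1 sample (n = 1), and no test between conditions was possible. The range over files shows how repeatably 1 set of cells was sampled, and the 95% intervals below are exact and cover counting error only. The files held 62627341 to 68898900 UMIs. Of 5944 barcodes in all files, 5481 were kept (at least 1000 genes and under 10% mitochondrial UMIs), with a median of 11049 UMIs. Several muscle markers were present, with Myod1 at 507, Des at 1165, Myog at 1803 and Pax7 at 57.1 CPM (UMIs of a gene per 1000000 UMIs). Of the other stem or progenitor markers listed, Myf5 was at 54.2, Sdc4 at 54.4 and Vcam1 at 17.0 CPM. Calcr and Cd34 of that list were nearly absent, at 0.261 and 0.253 CPM. Of the 19 markers of fibroblast, endothelial, immune, glial, pericyte and adipocyte cells, only Col3a1 (110 CPM), Notch3 (50.3 CPM) and Cspg4 (12.3 CPM) exceeded 10 CPM, while Ptprc, Sox10, Adipoq, Lum, Kdr and Adgre1 were under 0.03 CPM.

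Sequence at the start of the genes gives a feature that the choice by symbol did not use. A tract was counted where, within 10 bases of the annotated start and on the gene's own strand, a C was followed by at least 6 bases that were each C or T. A gene with several entries was counted if any of them had a tract. The RefSeq promoter table (GRCm38.p6) held 63 of the 83 members, and 29 of them (46.0%) had such a tract. Over all genes of that table, 3821 of 27025 (14.1%) had one. The share was 22.2% of 45 matched genes in a list of translation factors that also holds genes listed for such tracts, 10.1% of 69 mitochondrial ribosomal protein genes and 2.5% of 40 ribosome biogenesis genes. Windows of 40 bases, 20 on each side of the annotated start, are shown for members whose values are described below, with the tract in capitals.
Rps27: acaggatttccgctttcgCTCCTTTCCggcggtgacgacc
Rps27l: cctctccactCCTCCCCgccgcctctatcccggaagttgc
Rpl31: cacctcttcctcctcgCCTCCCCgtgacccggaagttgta
Rpl22l1: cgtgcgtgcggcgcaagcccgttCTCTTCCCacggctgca
Rps2: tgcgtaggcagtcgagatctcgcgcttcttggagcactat
Rpl24: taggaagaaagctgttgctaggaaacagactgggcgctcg
These lie at chr3:90213629-90213668 on the minus strand (Rps27) and, on the plus strand, at chr9:66946066-66946105 (Rps27l), chr1:39367831-39367870 (Rpl31), chr3:28805488-28805527 (Rpl22l1), chr17:24720043-24720082 (Rps2) and chr16:55966255-55966294 (Rpl24). The windows of Rps2 and Rpl24 held no match to these letters, and those of the paralogs Rps27 and Rps27l held matches of 9 and 7 bases. The match of Rps27l starts at the edge of the 10 bases searched. The letters c and t just before it are pyrimidines too, so the 2 lengths do not show a difference between the paralogs. Rps27l had 2 entries, and an entry with a tract was shown by preference. Its tract ends before the annotated start. A match describes the letters at an annotated start and does not show where transcripts begin in these cells.

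Transcripts of ribosomal protein genes made up a large part of all RNA molecules counted. Over the kept cells their share was 23.3% of UMIs, with 23.2% to 23.3% in the 4 files. The 33 small-subunit symbols contributed 10.2% and the 49 large-subunit symbols 13.0%. The remaining member, Rps19bp1, encodes a protein that binds S19 rather than a part of the ribosome, and gave 0.00697%. The members lie on 19 chromosomes, 4 of them (Rps4x, Rpl39, Rpl10 and Rpl36a) on the X.

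Most members were expressed within a narrow band. The median member had 2818 CPM, and 77 of 83 exceeded 1000 CPM. Rpl41, a very short protein of the large subunit (chromosome 10, GENCODE M21 on GRCm38, 128548114 to 128549305), was the highest at 6175 CPM (6144 to 6203 over files). Other members with high levels were Rps2 of the small subunit at 6031, the stalk protein Rplp1 at 5656 and Rps12 at 5095 CPM. The 6 members under 1000 CPM were Rps19bp1 and 5 genes with a close relative among the members. These were Rps27l (928 CPM), Rpl22l1 (907 CPM), Rpl36al (790 CPM), Rpl7l1 (102 CPM) and the retrogene Rps27rt (29.9 CPM). Rps27rt shares 91.6% of its 31-base words with Rps27, so its reads and those of Rps27 may have been split by the counting and its level is uncertain. The 3-prime method takes 1 tag per captured molecule, so these levels carry no correction for transcript length.

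Cells were compared after random thinning to 5000 UMIs in each file, which kept 5197 cells and left out 284 shallower ones. Over these cells the share was 23.5%, and single cells ranged from 17.1% at the 5th to 29.6% at the 95th percentile. Cells were then binned by the mean thinned UMIs of marker genes over the files. The markers were Myog (the regulator that starts differentiation), Acta1+Myh3 (actin and embryonic myosin of the sarcomere), Pax7 (the stem cell regulator) and Mki67+Top2a (proliferation). The 4 sets of bins divide the same cells, so they are not independent of each other.

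Along Myog, the share was lower where Myog was higher. It was 24.8% in the 815 cells without Myog UMIs and 24.7% in the 1560 cells with under 2. It was 23.3% in the 792 cells with 2 to under 10, and 22.1% in the 2030 cells with 10 or more. The highest minus the lowest bin was -2.66 percentage points (interval -2.71 to -2.61), and -2.71 to -2.63 points over the files. With mitochondrial and sarcomere UMIs taken out of the denominator, the difference was -1.55 points. Single cells overlapped widely, from 19.0% to 30.98% (5th to 95th percentile) in the lowest bin and from 16.2% to 27.8% in the highest.

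Along Acta1+Myh3, the decline was steeper and came late. The share was 24.6% in 571 cells at 0, 24.7% in 2414 cells under 2, 23.3% in 1067 cells at 2 to under 20 and 20.7% in 1145 cells at 20 or more. The highest minus the lowest bin was -3.89 points (interval -3.95 to -3.83), and -3.91 to -3.86 points over the files. Sarcomere genes, a list that holds Acta1 and Myh3 themselves, moved the other way, from 0.582% of UMIs in the lowest bin to 7.06% in the highest. Part of that rise follows from how the bins were formed. Without mitochondrial and sarcomere UMIs the difference was -2.32 points. Before thinning, the median cell held 2670 ribosomal protein UMIs in the lowest bin and 2522 in the highest, while its other UMIs went from 8192 to 9737. Ribosomal protein molecules per cell therefore differed less between these bins than the share did.

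With cells ordered by Acta1+Myh3 into 10 groups of equal size, the share stayed between 24.15% and 25.03% in the first 6. It was 23.6%, 22.7% and 21.5% in the next ones and 19.5% in the last, where sarcomere genes held 9.28% of UMIs. With mitochondrial and sarcomere UMIs removed, the last group stood at 22.5% against 25.5% in the first. Among cells with Myog at 10 or more, the share was 24.2% in the 200 cells with Acta1+Myh3 over 0 and under 2, 23.2% in the 779 at 2 to under 20 and 20.8% in the 1029 at 20 or more. High Myog cells that had little Acta1 and Myh3 thus had a share near that of cells without Myog.

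**Figure D1:**
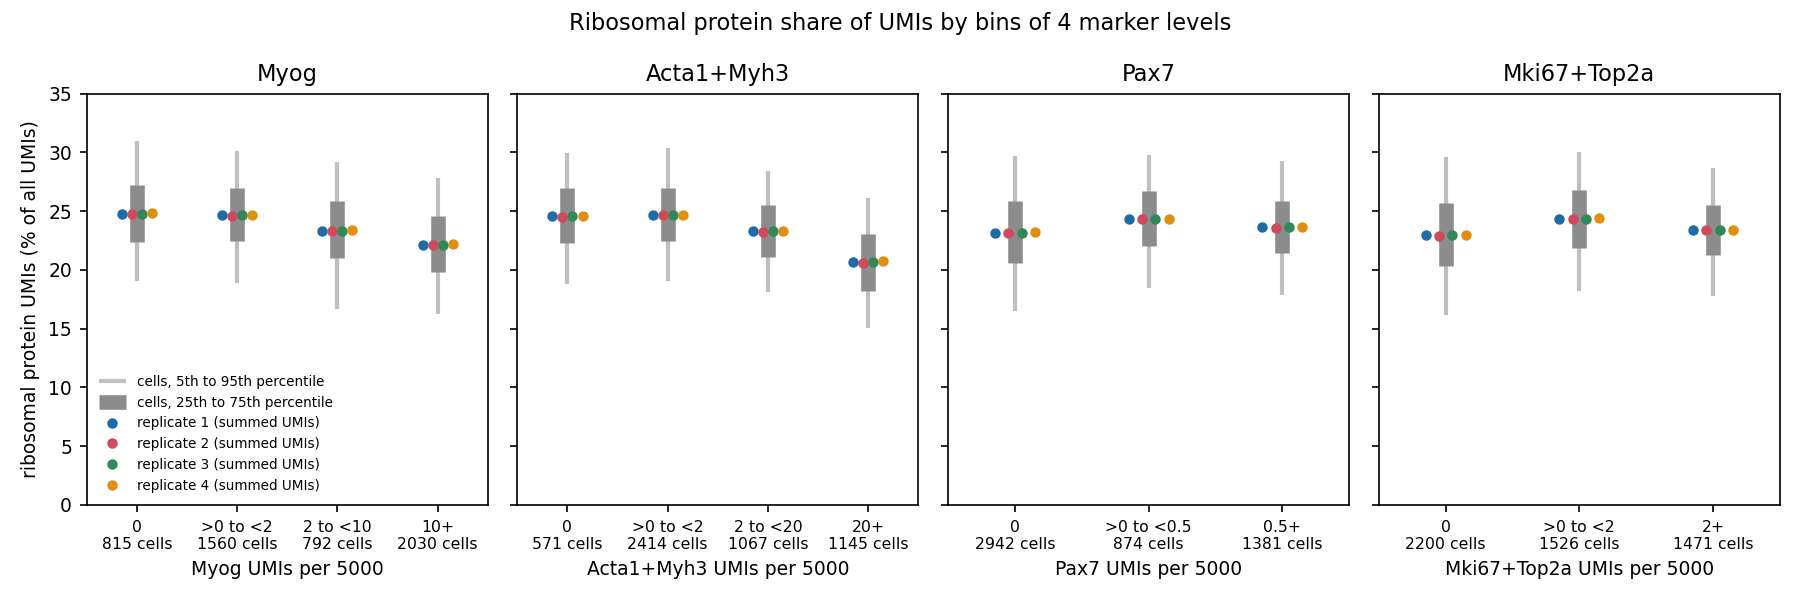
Share of UMIs from ribosomal protein genes (y axis, percent of all UMIs) in bins of thinned cells by UMIs of Myog, Acta1+Myh3, Pax7 and Mki67+Top2a per 5000 UMIs (x axis, with cells per bin). Points are the 4 files and grey bars the 25th to 75th and 5th to 95th percentiles of single cells. The points step down along Myog (24.8% to 22.1%) and Acta1+Myh3 (24.6% to 20.7%), and are highest in the middle bin for Pax7 and Mki67+Top2a.

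**Figure D2:**
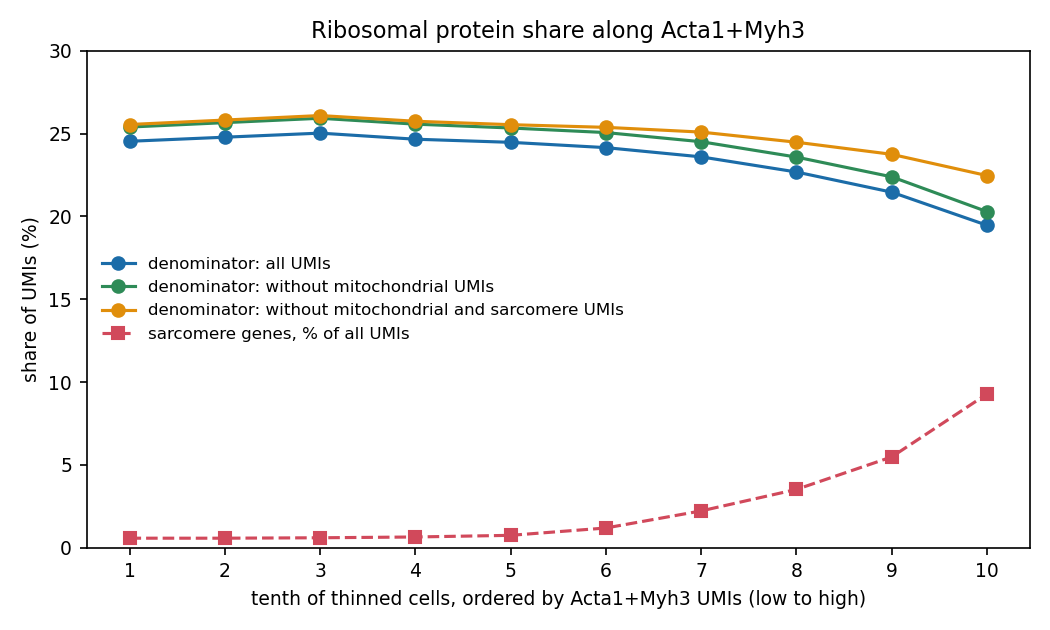
Share of UMIs (y axis, percent) in 10 groups of thinned cells of equal size, ordered by Acta1+Myh3 UMIs (x axis, low to high), averaged over the 4 files. Circles give ribosomal protein genes with 3 denominators and squares the sarcomere genes, Acta1 and Myh3 among them. The ribosomal protein share ends at 19.5% of all UMIs and at 22.5% without mitochondrial and sarcomere UMIs.

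Along Pax7, the share did not move in 1 direction. It was 23.2% in the 2942 cells without Pax7, 24.3% in 874 cells under 0.5 and 23.6% in 1381 cells at 0.5 or more. The highest bin lay 0.459 points above the lowest (interval 0.421 to 0.498), but the bin without Pax7 also holds most differentiating cells, with 3.67% sarcomere UMIs against 0.697%. Without mitochondrial and sarcomere UMIs the difference was -0.324 points. Leaving out any 1 of the 4 files, with bins formed from the other 3, gave 0.180 to 0.283 points, under the reported size each time. Among cells with Myog under 2, the highest bin lay below the lowest, with 26.2% in 603 cells without Pax7, 25.1% in 562 cells and 23.8% in the 1210 cells at 0.5 or more. Among those of them without Mki67 or Top2a UMIs, it was 26.7%, 25.4% and 24.4%. Cells poor in Malat1 were unevenly spread over these bins with Myog under 2, at 22.7%, 10.5% and 3.55% of cells. Their part in the difference was not tested within these bins.

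Along Mki67+Top2a, the share was again highest in the middle bin. It was 22.9% in 2200 cells without Mki67 or Top2a, 24.3% in 1526 cells under 2 and 23.4% in 1471 cells at 2 or more. The highest bin lay 0.448 points above the lowest (interval 0.408 to 0.487). But the upper 20% of cells minus all cells without Mki67 or Top2a gave -0.105 points. Without mitochondrial and sarcomere UMIs the difference was -0.532 points. Among cells without Myog, the share was 25.4% in 205 cells without either proliferation marker, 26.0% in 247 cells and 23.6% in the 363 cells at 2 or more. Among cells with Myog at 10 or more it was 21.97%, 22.5% and 22.1%, so the bins differed less there. The cells without Myog differed in depth, with medians of 9476, 10993 and 13647 UMIs before thinning, and the median cell's ribosomal protein UMIs were 2327, 2729 and 3236. In cells without Mki67 or Top2a, the differences along Myog and Acta1+Myh3 were -3.40 and -4.86 points.

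Cells poor in the nuclear RNA Malat1 had a higher share. The 414 cells with under 1000 CPM of Malat1 had 28.3% ribosomal protein UMIs and 2.30% mitochondrial UMIs, against 23.1% and 3.78% in the other 4783. Without the Malat1-poor cells the differences were -2.36 points for Myog, -3.47 for Acta1+Myh3, 0.856 for Pax7 and 0.468 for Mki67+Top2a. At the other end, 9 thinned cells had under 10%, with 5.53% on average, 22644 CPM of Malat1 and 6.88% mitochondrial UMIs. Barcodes that failed the filter (463) had 4.76% ribosomal protein UMIs, and 33.8% were mitochondrial. The 9 cells with the lowest shares thus had more Malat1 and mitochondrial RNA than the kept cells together (8455 CPM and 3.58%). For the barcodes that failed, the mitochondrial share follows in part from the filter itself.

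Gene by gene, the members moved little beside other genes. Called genes were those at least 1.5-fold apart between the highest and the lowest bin on log2(CPM + 1), with no test because n = 1. Along Myog, 0 of 83 members were called higher, where 13.4% of the 10055 genes tested were, and 1 was called lower, where 32.4% were. Along Acta1+Myh3, 0 were called higher against 13.8% of 8797 genes, and 1 was called lower against 37.1%. The member called lower was Rps27l in both. Along Pax7, 0 were called higher against 28.2% of 10995 genes and 0 lower against 8.84%. Along Mki67+Top2a, 0 were called higher against 22.9% of 10735 genes and 0 lower against 11.0%. Most members have many counts, and their log2 ratios (-0.67 to 0.08 for Myog) formed a narrow peak within the spread of all genes.

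The direction of that peak depended on how the bins were scaled. On CPM, 78 members were lower in the high Myog bin and 81 in the high Acta1+Myh3 bin, with medians of -0.14 and -0.21, but with trimmed-mean (TMM) scaling 73 and 70 were higher, with medians of 0.12 and 0.15. Along Pax7 and Mki67+Top2a, 54 and 51 members were higher on CPM, with medians of 0.03 for both, but with TMM 82 and 75 were lower, with medians of -0.24 and -0.15. Median-ratio scaling gave 75 and 70 higher for Myog and Acta1+Myh3 and 82 and 75 lower for Pax7 and Mki67+Top2a. The median of all genes on CPM was -0.26, -0.35, 0.26 and 0.16 for the 4 axes, so that other genes moved further the same way. Relative to it, the members' medians were 0.11 and 0.14 higher for Myog and Acta1+Myh3, and differed by -0.23 and -0.13 for Pax7 and Mki67+Top2a. TMM changed the split of all called genes too, from 1351 higher and 3258 lower to 1967 and 2331 for Myog, and from 1217 and 3261 to 1959 and 2074 for Acta1+Myh3. For Pax7 the split went from 3103 and 972 to 1930 and 1551, and for Mki67+Top2a from 2460 and 1181 to 1821 and 1623.

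**Figure D3:**
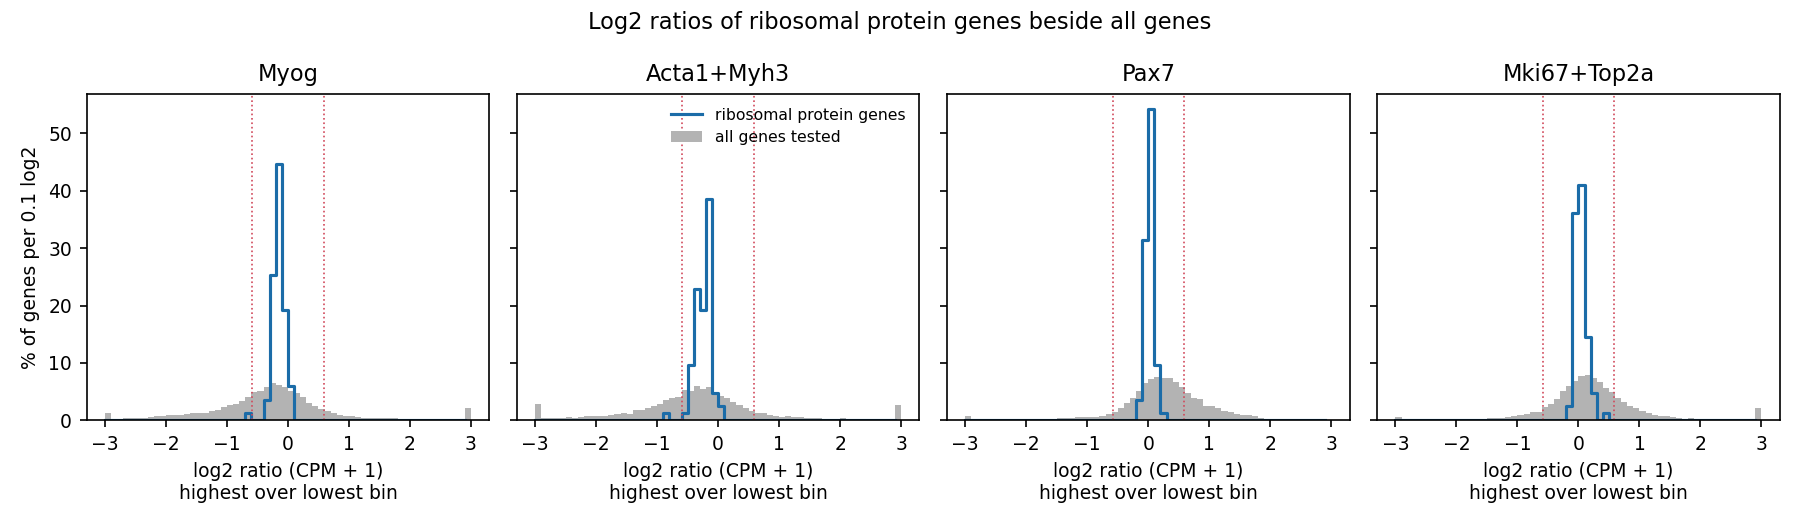
Percent of genes (y axis) per 0.1 of log2 ratio between the highest and the lowest bin on CPM + 1 (x axis, values beyond the axis placed in its end bins), for all genes tested (grey) and the 83 ribosomal protein genes (blue line). Dotted lines mark 1.5-fold. The members form a narrow peak with medians of -0.14, -0.21, 0.03 and 0.03, and the member past the lower line for Myog and Acta1+Myh3 is Rps27l.

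To see which members departed from the rest, each was expressed as its share of the summed ribosomal protein UMIs, a measure that the scaling does not touch. The spread was small, since 82, 80, 83 and 81 of 83 members lay within 0.25 (log2) of the pool for Myog, Acta1+Myh3, Pax7 and Mki67+Top2a. A member was said to depart where its log2 ratio was past 0.32 in either direction with an interval that excludes 0, and only Rps27l did. It departed downward along Myog and Acta1+Myh3 and upward along Mki67+Top2a, and no member departed along Pax7. The balance of the subunits also moved little, with 0.791 small-subunit UMIs per large-subunit UMI in the lowest Acta1+Myh3 bin and 0.774 in the highest.

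Rps27l encodes a paralog of the small-subunit protein S27 and is known as a gene induced by p53. It lies on chromosome 9 (66946086 to 66949516, plus strand), and its transcripts share at most 11 bases in a row with those of Rps27, so reads of the 2 can be told apart. In cells without Myog it had 1120, 1124, 1133 and 1117 CPM in the 4 files, and in cells with Myog at 10 or more 709.5, 702, 714 and 695 CPM. All values of the high Myog bin lay below all of the low one, with a log2 ratio of -0.67 (-0.72 to -0.62). Relative to the pool the log2 ratio was -0.51 (-0.56 to -0.45). Over the alternatives tried it was -0.59 to -0.41. The files sample the same cells, and 71 of 83 members went the same way in every file relative to the pool along Myog.

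Along Acta1+Myh3, Rps27l had 1055, 1069, 1032 and 1092 CPM in the lowest bin and 597, 588, 599 and 600.2 CPM in the highest. The bins did not overlap over the files, which sample the same cells, and the log2 ratio was -0.83 (-0.90 to -0.76). With TMM scaling it was -0.47, and -0.40 for Myog, short of 1.5-fold but still lower. Relative to the pool it was -0.58 (-0.66 to -0.51), and -0.33 without thinning. In dividing cells Rps27l was higher, with 1019, 1025, 1021 and 1028 CPM at Mki67+Top2a of 2 or more against 774, 765, 778 and 766 CPM at 0. Relative to the pool that was a log2 ratio of 0.38 (0.34 to 0.43). Along Pax7 it was 0.25 (0.21 to 0.29), the highest of all members but under 0.32, from 831 to 1008 CPM. Of the 2200 cells with Mki67+Top2a at 0, 1341 had Myog at 10 or more, against 160 of the 1471 at 2 or more. Whether Rps27l differed with Mki67+Top2a among cells of like Myog was not tested.

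Set against its paralog, Rps27l had 53.6 UMIs per 100 of Rps27 in cells without Myog. The ratio was 51.9 and 46.2 in the middle bins and 35.8 in the highest. Along Acta1+Myh3 it was 51.2, 51.5, 41.3 and 31.3, with the files of the highest bin between 30.9 and 31.7. It was 37.2, 49.9 and 52.9 along Mki67+Top2a and 41.6, 50.8 and 49.2 along Pax7. Rps27 itself (chromosome 3, 90212522 to 90213651, minus strand) stayed between 1901 and 2095 CPM in every bin of Myog and Acta1+Myh3. The ratio was thus lowest in cells with much Acta1 and Myh3 and highest in cells without Myog.

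**Figure D4:**
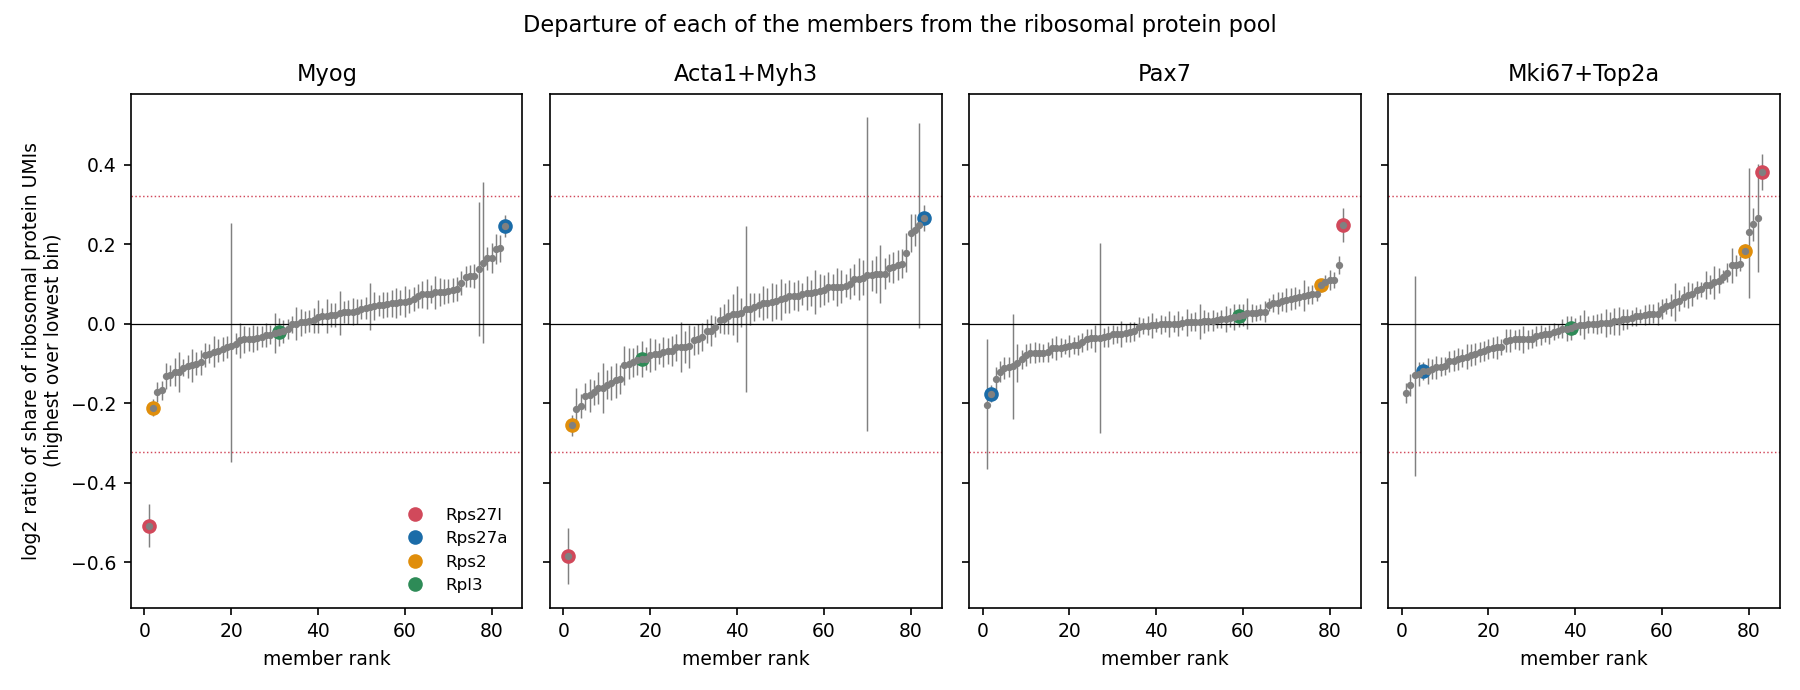
Log2 ratio of each member's share of ribosomal protein UMIs, highest over lowest bin (y axis), with members ordered by it (x axis, rank among 83) and exact 95% counting intervals (grey lines). Dotted lines mark a log2 ratio of 0.32 in either direction. Rps27l lies at -0.51, -0.58, 0.25 and 0.38, Rps27a at 0.25, 0.27, -0.18 and -0.12, and Rpl3 near 0.

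**Figure D5:**
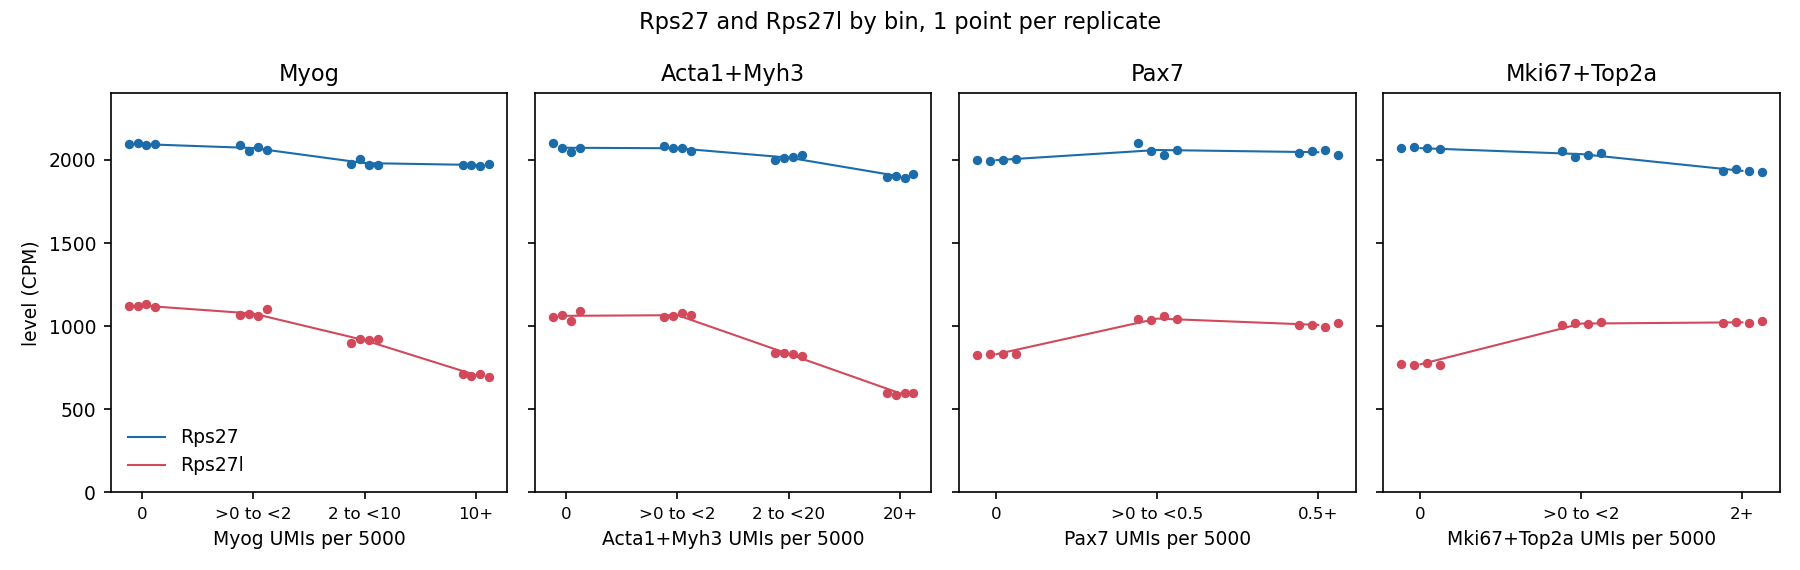
Levels of Rps27 and Rps27l (y axis, CPM) in the bins of the 4 axes (x axis, UMIs per 5000), 1 point per file with lines through the means. Rps27 stays near 2000 while Rps27l goes from 1124 to 705 CPM along Myog and from 771 to 1023 CPM along Mki67+Top2a.

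A few members leaned mildly in the same way as Rps27l or in the opposite one. Rps2 and Rpsa of the small subunit and Rplp0, the base of the large-subunit stalk, took a smaller part of the pool in high Myog cells. Rps2 had 6777, 6692, 6784 and 6813 CPM in cells without Myog and 5205, 5219, 5216 and 5227 CPM in the highest bin. Relative to the pool its log2 ratio was -0.21 (-0.23 to -0.19), and it was -0.26 along Acta1+Myh3, 0.10 along Pax7 and 0.18 along Mki67+Top2a. The files of the low and the high bin did not overlap in any of these, but they sample the same cells. Relative to the pool, 71, 78, 63 and 67 of 83 members went the same way in every file along Myog, Acta1+Myh3, Pax7 and Mki67+Top2a. Rplp0 and Rpsa were at -0.17 each along Myog. Along Acta1+Myh3 the lowest after Rps27l and Rps2 were Rpl7a at -0.21, Rpsa at -0.21 and Rpl32 at -0.18. These are small differences, all short of a departure.

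In the opposite direction, Rps27a led along both differentiation axes. It encodes S27a fused to ubiquitin, which is cut off after translation. It had 3711, 3725, 3746 and 3685 CPM in cells without Myog and 3946, 3924, 3931 and 3930.2 CPM in cells at 10 or more. Its level on CPM was thus slightly higher where most members were lower, and its log2 ratio relative to the pool was 0.25 (0.22 to 0.27) along Myog and 0.27 (0.23 to 0.30) along Acta1+Myh3. Along Pax7 and Mki67+Top2a it was -0.18 and -0.12. Rpl24 and Rps25 followed, at 0.19 each along Myog and at 0.24 and 0.23 along Acta1+Myh3, with Rpl27 at 0.17 and 0.18. Rps19bp1, the S19-binding protein, was at 0.25 along Acta1+Myh3 with an interval of -0.01 to 0.50 that includes 0.

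In dividing cells, Rpl7l1 and Rpl31 came next after Rps27l. Rpl31, a large-subunit protein, had 976, 995, 982 and 1004 CPM in cells without Mki67 or Top2a and 1204, 1194, 1215 and 1183 CPM at 2 or more. Its log2 ratio relative to the pool was 0.25 (0.21 to 0.29). Rpl7l1, a paralog of Rpl7, was at 0.26 (0.13 to 0.40), from 89.9 to 110 CPM. Rps19bp1 stood at 0.23 and Rps2 at 0.18. At the low end were Rpl24 at -0.15, Rps27rt at -0.13 with an interval of -0.38 to 0.12, and Rps27 at -0.13. Along Pax7, the high end held Rpl12 at 0.15, Rplp0 and Rpl13a at 0.11 and Rps12 at 0.10, and the low end Rps19bp1 at -0.20, Rpl27 at -0.14, Rpl24 at -0.12 and Rpl14 at -0.11.

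Rpl3, a core protein of the large subunit (chromosome 15, 80077791 to 80091868, minus strand), followed the pool. It had 2129, 2123, 2129 and 2131 CPM over the kept cells of the 4 files. In cells without Myog it had 2245, 2304, 2275 and 2291 CPM, and in cells at 10 or more 2028, 1980.0, 2021 and 1996 CPM. The high bin was lower in every file, but relative to the pool the log2 ratio was -0.02 (-0.06 to 0.02), rank 31 of 83. Along Acta1+Myh3, where 20 or more UMIs marks the most differentiated cells, Rpl3 had 1827, 1775, 1819 and 1786 CPM against 2264, 2268, 2270.4 and 2307 CPM at 0. Relative to the pool that was -0.09 (-0.13 to -0.04), rank 18. Along Pax7 and Mki67+Top2a its ratio was 0.02 and -0.01, with intervals that include 0. Rpl3 thus did not stand out from other members on any axis.

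Rpl3l (chromosome 17, 24727820 to 24736143, plus strand) was close to absent. Its kept cells held 6, 4, 5 and 6 UMIs in the 4 files, or 0.080 CPM (interval 0.025 to 0.18). A UMI was seen in 18 of 5481 cells in any file, and in 2 of them in more than 1 file. Of the 1170 kept cells with Acta1+Myh3 at 20 or more per 5000 UMIs, 6 had one. The rest came from cells below that level, so the few UMIs were not limited to the most differentiated cells. Its longest run shared with Rpl3 is 22 bases, so an exchange of Rpl3 for Rpl3l was not detectable at this depth in these cells.

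Other paralog pairs varied less between bins than Rps27l and Rps27 did. Rpl22l1 had 61.3 UMIs per 100 of Rpl22 in cells without Myog and 64.3 in cells at 10 or more. Along Mki67+Top2a it had 61.3 at 0 and 67.5 at 2 or more, with files at 59.6 to 62.8 and 64.1 to 71.0. Rpl36al had 48.8 per 100 of its X-linked relative Rpl36a without Myog and 49.6 at the highest level, and 46.6 in the highest Pax7 bin against 50.4 without Pax7. Rpl7l1 ranged from 3.85 per 100 of Rpl7 in cells without Mki67 or Top2a to 4.82 at 2 or more. Rpl39l, known from testis, had at most 4 UMIs in a file. Rpl10l, also known from testis, had 0 in all 4 files, with an interval that reaches 0.056 CPM. Of the pairs with a counted second gene, Rps27 and Rps27l were the only pair with a departing gene.

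Fau and Rack1 encode ribosomal proteins that the symbol rule does not reach, and they were lower on CPM like most members. Fau, which encodes S30 fused to a ubiquitin-like protein, had 3242 CPM without Myog and 3052 CPM at 10 or more, a log2 ratio of -0.09. Rack1, a scaffold on the small subunit, had 2205 and 1894 CPM (-0.22). With TMM scaling these became 0.18 and 0.05, so their direction flipped as it did for the members.

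Among genes that make ribosomes, several were called lower along differentiation, where 32.4% of all genes were along Myog and 37.1% along Acta1+Myh3. Of 46 ribosome biogenesis genes, 1 was higher and 10 lower along Myog, with a median of -0.19, and 1 higher and 14 lower along Acta1+Myh3, with a median of -0.27. These medians became 0.06 and 0.08 with TMM scaling, with 4 higher and 4 lower, and 4 higher and 7 lower. Over all genes TMM gave 1967 higher and 2331 lower of 10055 along Myog, and 1959 and 2074 of 8797 along Acta1+Myh3. Myc, which drives ribosome production, went from 16.2 to 3.60 CPM along Myog (log2 -1.90, and -1.67 with TMM) and to a log2 ratio of -2.38 along Acta1+Myh3. Utp20 (-1.35) of the small-subunit processome and Polr1c (-0.92), a subunit of RNA polymerases I and III, were next along Myog. Rrp12 (0.78), Bysl (0.56) and Nip7 (0.48), all assembly factors, stood at the other end. Along Mki67+Top2a, 14 of 46 were higher and 0 lower, where 22.9% and 11.0% of all genes were, led by Dkc1 (1.27) and Utp20 (1.24), with the nucleolar protein Ncl at 1.12. With TMM scaling 10 were higher, where 1821 of the 10735 genes tested were. The ribosomal protein genes had 0 called on that axis in either direction.

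Translation factors were listed together with regulators such as mTOR and with genes known for pyrimidine tracts, among them the non-coding snoRNA host genes Snhg5 and Snhg12. Of 56 tested of 57 listed, 4 were higher and 6 lower along Myog (median -0.09), and 4 higher and 10 lower along Acta1+Myh3 (median -0.17), where 13.4% and 32.4% of all genes were along Myog and 13.8% and 37.1% along Acta1+Myh3. With TMM scaling the medians were 0.18 and 0.19. Rps6kb1, the kinase of ribosomal protein S6, was at 0.96 and 0.89, and Eif4ebp1, which blocks the cap-binding factor until mTOR phosphorylates it, at 0.76 and 0.90. Rptor, a subunit of mTOR complex 1, was at 0.72 along Myog and Eif2s2 at 0.70 along Acta1+Myh3. Eef2k, which inhibits elongation, was at -0.85 and -1.92, the poly(A)-binding protein Pabpc1 at -1.10 along Acta1+Myh3, Eif1a at -0.76 and Snhg5 at -0.78 along Myog and Snhg12 at -1.02 along Acta1+Myh3. Eef1a1 went from 5628 to 5006 CPM along Myog. Its adult muscle paralog Eef1a2 had 0 UMIs in the highest and lowest bins of all 4 axes, which still allows a few UMIs in each. Neither Rpl3l nor Eef1a2 was thus present above a few UMIs.

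Mitochondrial ribosomal proteins form the separate ribosome of mitochondria, and are encoded by other genes. Of 78 tested, 0 were higher and 3 lower along Myog (median -0.05), against 13.4% and 32.4% of all genes. Along Acta1+Myh3, 0 were higher and 7 lower (median -0.09), against 13.8% and 37.1%, while TMM scaling gave medians of 0.21 and 0.26. Mrpl20 was the lowest at -0.98 and -1.05, followed by Mrpl34 at -0.67 and -0.84 and Mrpl14 at -0.61 and -0.78. Mrpl41 (0.49 and 0.53), Mrps17 (0.47 and 0.40), Mrpl1 (0.40 along Myog) and Mrpl33 (0.44 along Acta1+Myh3) stood at the high end. Of 41 sarcomere genes tested, 40 were higher along Myog, with a median of 4.41.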

How the data were processed

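Each of the 4 deposited matrices gives unnormalized UMI counts by gene and barcode, and per the file headers the authors ran Cell Ranger 7.1.0, while the submitters' processing notes name Cell Ranger 3.1.0 and the builds mm10 and GRCm39 without saying which was used. Treatment of intronic reads is not given in the sources used here. If counted, they raise long genes relative to the short ribosomal protein genes. Coordinates are from GENCODE M21 (GRCm38), where all 83 members and 32158 of 32285 identifiers were found.

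Members and lists were chosen with earlier results of these data known. Values were computed per file and averaged over the 4 files, not summed, since molecules may be shared. With n = 1 no p-value was computed. Cells were thinned with a fixed seed to 5000 UMIs per file. Genes needed 50 UMIs in every file over both bins. Log2 ratios were taken on CPM plus a pseudocount of 1. Intervals are exact 95% Clopper-Pearson (shares), Poisson (levels) and conditional binomial (ratios) intervals, computed for the depth of a single file, and the interval of a difference joins those of its bins. Doublets were not removed. TMM factors came from edgeR 4.0.16 and median-ratio factors were those of DESeq2 1.42.0. Computation used Python 3.11.15. The ratio counts were tried on simulated files drawn independently, with Poisson counting error only and no variation between cells. There 0.0% of unchanged genes and 99.5% to 100% of genes changed 2-fold were past 1.5-fold. That setting cannot show how the counts behave in files that share their cells. Named genes were Rpl3, Rpl3l, the paralog pairs, the 5 highest members, the 5 highest and 5 lowest within-pool ratios per axis with the same direction in every file, the 3 highest and 3 lowest of each other list along Myog and Acta1+Myh3, and Eef1a1, Eef1a2, Fau and Rack1, and a few genes that this rule names are not reported here. Dkc1, Utp20 and Ncl along Mki67+Top2a were named after their values were seen. The pair of Rps4x and Rps4l was not analysed here. Alternatives changed the cell filter, thinning, bins, denominator, scaling, pseudocount, minimum, thresholds and files.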

Additional observations from a re-analysis of the deposited data

Results flagged for a closer look

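Of 46 values compared over the 4 files, 1 had a file standing apart: the level of Rps25 in replicate 3 was 1932 CPM, against 1945 to 1947 CPM in the others, a gap of 0.862 of the range. Chance alone flags about 5% of such values.

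Ribosomal protein pseudogenes were left out of the members, and 3 of the 5 in the files had more than 3 UMIs per file. Rpl10-ps3 had 3203 UMIs per file (3020 to 3438 over the files), Rpl9-ps6 had 2301 (2187 to 2391) and Rpl36a-ps1 had 1015 (963 to 1081). The files used here have no control group to compare them with, and whether they are transcribed or hold reads of their parent genes was not tested.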

How the results depend on the processing

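No paired analysis was possible because the series has a single group. Of the values that answer a comparison, 203 stayed close to the reported one under an alternative, 63 moved and 3 reversed. Some of the 203 could not change. In thinned cells the mean of cells equals the summed share, and lower gene minimums leave every member in. Others are counts of 0 that stayed at 0. The share over kept cells was 23.5% under a stricter cell filter (2000 genes, 5% mitochondrial), 24.1% without mitochondrial UMIs, 24.8% without those of sarcomere genes too, 23.5% as a mean of cells, 22.9% without Malat1-poor cells and 23.3% leaving out a file. In the order Myog, Acta1+Myh3, Pax7 and Mki67+Top2a, the differences in points were -1.55, -2.32, -0.324 and -0.532 without mitochondrial and sarcomere UMIs (the last pair reversed), and -3.04, -3.99, 0.542 and 0.525 without thinning. They were -2.54, -3.65, 0.273 and 0.350 under the stricter cell filter, and -2.36, -3.47, 0.856 and 0.468 without Malat1-poor cells. Without those cells and mitochondrial UMIs, an alternative chosen after seeing the data, they were -2.35, -3.46, 0.828 and 0.300. Between the upper and lower 20% of cells they were -2.62, -4.31, 0.149 and -0.105, the last reversed. For Pax7 and Mki67+Top2a the lower group there was all cells without UMIs of the markers, since these exceed 20% of cells. Without mitochondrial UMIs Mki67+Top2a gave 0.294, and without cycling cells Myog and Acta1+Myh3 gave -3.40 and -4.86. Leaving out a file gave -2.72 to -2.61, -4.07 to -3.93, 0.180 to 0.283 and 0.331 to 0.420. Members called lower along Myog and Acta1+Myh3 were 0 under TMM, median-ratio scaling and a fold of 2, 4 and 22 at a lower threshold of 0.32 (log2), and 0 for Acta1+Myh3 without thinning. The 4 along Myog were Rps27l, Rps2, Rplp0 and Rpsa. Over all genes, those lower at 0.32 include the 32.4% along Myog and 37.1% along Acta1+Myh3 that were lower at 1.5-fold. At 0.32, 1 member (Rps27l) was higher along Mki67+Top2a, where 4094 of the 10735 genes tested were. Without thinning 1 member departed upward along Myog and Acta1+Myh3 (Rps19bp1) and 1 along Pax7 (Rps27l). At a departure of 1.1-fold, 5 went up and 4 down for Myog, 8 and 13 for Acta1+Myh3, 2 and 3 for Pax7 and 8 and 2 for Mki67+Top2a, and at 1.5-fold 0 departed. Called and departing counts stayed as reported (0 or 1) without any 1 file. Except where construction shows it (a threshold, a denominator, fewer cells), the cause was not tested. Depth limits Rps27rt, Rps19bp1, Rpl7l1 and Rpl3l, whose intervals are wide.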
